A study of Mus musculus with 2 samples.

Results

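The regions described here are the 1 kb windows of chromosomes 1 to 19 with more RNA signal in the JXO than in the OXJ library. A window was kept when its mean scaled depth, summed over both strands, was at least 1 in JXO and when the ratio of (JXO + 0.1) to (OXJ + 0.1) was at least 2.38. This held for 1022 windows, 8.88% of the 11507 windows with a JXO mean of 1 or more and a small part of the 34147 windows with signal in either library. The windows were thus selected on the level in JXO and on the ratio itself, so the ratios below describe them and are not tested. Ratios are given as log2 of JXO over OXJ, with 0.1 added to each. The same thresholds with the libraries exchanged kept 192 windows, 1.88% of the 10190 with an OXJ mean of 1 or more.

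The libraries came from mouse embryo fibroblasts (MEFs), the cells that grow out of a dispersed embryo carcass without head and internal organs. JXO MEFs had a JF1 mother and a TgOG2 father, and OXJ MEFs a TgOG2 mother and a JF1 father. Both lines came from female embryos of 13.5 dpc and were used at early passage, and embryos of both crosses inherit the GOF18ΔPE-EGFP transgene of the OG2 line, a reporter driven by the *Pou5f1* promoter. Each cross is 1 MEF line and 1 library, so a difference between the crosses cannot be told apart from a difference between embryos or cultures, and no p-value is given. Scaled depth is the number of reads over a base per 50000000 aligned reads. The tracks do not mark which allele a read came from, so the labelled crosses could not be checked in them. The study printed read counts at SNPs of imprinted transcripts, not scaled to library size. At those of *Peg13*, *Kcnq1ot1* and *Slc38a4* it counted more reads in OXJ, the reverse of the windows that hold these SNPs. At that of *Nespas* it counted more in JXO, the direction of the window. The reason for the difference was not tested. The study reports that OG2 sequence in general matches the reference genome, while JF1 differs from it at many SNPs. Whether reads of both strains aligned equally well to mm9 was not tested. In these bulk cultures, fewer cells of a type and less RNA per cell cannot be told apart.

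Most genes are transcribed from both parental chromosomes. Imprinted genes are transcribed mainly from the maternal or the paternal one, and several imprinted domains hold a long non-coding RNA that starts inside a protein-coding gene and runs antisense to it. *Kcnq1ot1* inside *Kcnq1* and *Airn* inside *Igf2r* are the best known of these RNAs, both transcribed from the paternal chromosome, which is OG2 in JXO and JF1 in OXJ. Total RNA depleted of ribosomal RNA also contains unspliced RNA, so introns give signal next to exons.

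Stretches of sequence from 3 loci show what was transcribed there. They come from the windows with the largest ratios, 1 per locus, among windows at a JXO mean of 5 or more without coding exons. In the 200-base stretches, the deepest of their window in JXO, all bases are given in the direction of the RNA, with CG dinucleotides in capitals. The first lies in an intron of *Trappc9* where the study placed the non-coding RNA *Peg13*, at chr15:72636491-72636690 of mm9 on the (−) strand, with a mean depth of 25 in JXO and 2.11 in OXJ on that strand. The second lies in *Kcnq1ot1*, antisense to *Kcnq1*, at chr7:150478001-150478200 on (−), with 32.3 and 7.29. The third lies antisense to *Gnas* at chr2:174147058-174147257 on (−), with 19.6 and 1.88. They hold 2, 3 and 4 CG dinucleotides. The end of the third stretch resembles a B2 short interspersed repeat, so reads there may also map elsewhere in the genome.

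Peg13 stretch: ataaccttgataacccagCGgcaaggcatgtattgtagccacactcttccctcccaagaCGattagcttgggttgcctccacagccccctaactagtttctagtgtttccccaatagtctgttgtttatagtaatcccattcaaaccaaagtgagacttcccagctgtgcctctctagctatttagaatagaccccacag
Kcnq1ot1 stretch: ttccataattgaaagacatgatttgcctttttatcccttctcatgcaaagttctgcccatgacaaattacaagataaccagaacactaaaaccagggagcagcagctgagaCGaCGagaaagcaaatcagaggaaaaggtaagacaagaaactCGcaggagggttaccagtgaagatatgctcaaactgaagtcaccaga
Gnas antisense stretch: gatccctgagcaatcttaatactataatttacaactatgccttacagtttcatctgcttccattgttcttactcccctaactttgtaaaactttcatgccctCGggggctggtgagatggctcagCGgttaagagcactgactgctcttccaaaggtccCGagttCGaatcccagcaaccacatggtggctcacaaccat

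Start regions are shown for 3 transcripts that hold runs of such windows. They were taken from RefSeq (GRCm38.p6) and placed on mm9 by exact match. The start region of *Kcnq1ot1* spans chr7:150482403-150482702 on (−) with 300 bases and 9 CG dinucleotides. For the coding genes *Tfpi2* and *Fibin* the 250 bases before the start are given, at chr6:3918376-3918625 on (−) with 11 CG dinucleotides and at chr2:110203151-110203400 on (−) with 7. With the 50 bases after the start included, *Tfpi2* had 12 and *Fibin* 11, and the median of 32851 RefSeq promoters of this length was 7. RefSeq gives *Tfpi2* 2 further starts upstream, each with 2 CG dinucleotides in its 300 bases, while the start shown is the one at the annotated gene. A promoter could be placed on mm9 for 263 of the 374 genes that hold a window with more signal in JXO.

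Kcnq1ot1 start: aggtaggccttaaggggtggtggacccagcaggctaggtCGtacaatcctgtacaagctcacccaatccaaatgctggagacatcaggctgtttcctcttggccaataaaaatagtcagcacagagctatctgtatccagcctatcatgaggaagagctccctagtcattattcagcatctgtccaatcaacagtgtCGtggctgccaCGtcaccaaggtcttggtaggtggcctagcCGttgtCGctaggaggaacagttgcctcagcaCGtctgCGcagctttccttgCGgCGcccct
Tfpi2 upstream: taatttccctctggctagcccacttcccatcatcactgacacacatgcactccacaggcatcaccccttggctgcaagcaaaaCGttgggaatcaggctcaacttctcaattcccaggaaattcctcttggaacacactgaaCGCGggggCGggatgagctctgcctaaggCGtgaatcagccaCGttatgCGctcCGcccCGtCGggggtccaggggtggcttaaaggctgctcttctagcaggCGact
Fibin upstream: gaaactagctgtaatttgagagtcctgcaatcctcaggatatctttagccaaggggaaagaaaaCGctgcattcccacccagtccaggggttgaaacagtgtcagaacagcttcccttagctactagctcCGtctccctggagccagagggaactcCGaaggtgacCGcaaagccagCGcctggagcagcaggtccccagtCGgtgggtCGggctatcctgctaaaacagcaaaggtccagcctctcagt

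The median window with more signal in JXO had a scaled depth of 1.91 in JXO and 0.577 in OXJ, and a log2 ratio of 1.53. Levels ran from just above 1 to 1574 in JXO, and 52.1% of the windows lay between 1 and 2, against 29.3% of the 10485 windows that met the level but not the ratio. A level of 1 in JXO is about 15.3 reads of 100 bases in a window, and the median window rested on 29.3 reads in JXO and 9.97 in OXJ. Counting intervals were set from read pairs (95%, Clopper-Pearson) and cover counting error only. The interval of the ratio lay above 0 for 734 windows (71.8%), against 3021 of the 10485 others. The windows were selected on the same counts, so a high share follows largely from the rule. In 9 windows OXJ was at 0, with JXO between 1.01 and 1.27, and a count of 0 read pairs (3 pairs as the limit) allows an OXJ level of up to 0.347.

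The windows are read against a general difference between the libraries within the deposited stretches. Among the 12262 windows with a mean of 1 or more in either library the median log2 ratio was 0.47, so the threshold lies 0.78 above it on the log2 scale. The counting interval, set from the same counts that selected the windows, lay above this median for 371 of the 1022 windows (36.3%). Of all windows past the thresholds in either direction, 84.2% were higher in JXO. That share was 67.3% when the libraries were set to equal totals of deposited signal, with 690 windows higher in JXO and 335 higher in OXJ. It was 32.7% when the median ratio was set to 0, with 372 and 766.

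**Figure D1:**
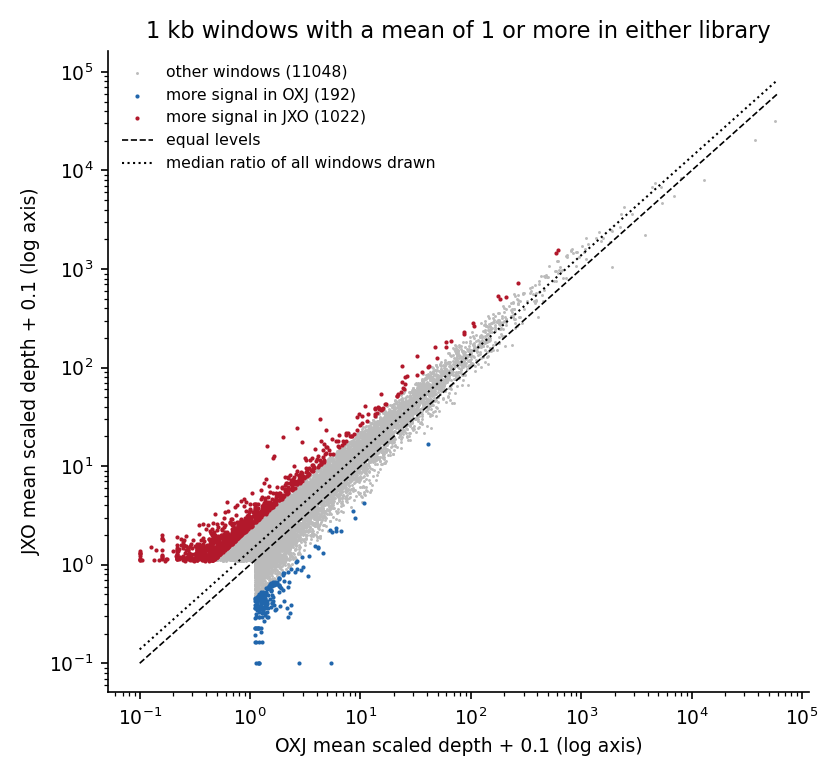
Mean scaled depth of every 1 kb window with a mean of 1 or more in either library, OXJ on the horizontal and JXO on the vertical axis (both log axes, 0.1 added). The 1022 windows with more signal in JXO (red) crowd at low levels, and the dotted line, the median log2 ratio of 0.47, lies above the dashed line of equal levels.

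At the threshold the values hardly differ. Just inside lay a window in an intron of *Atf1*, a transcription factor gene, with 2.60 in JXO and 1.03 in OXJ. Just outside lay an exon window of *Trpc2*, with 2.09 and 0.821.

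Neighbouring windows share transcripts, so they were joined into runs when at most 1 kb lay between them. The 1022 windows made 822 runs, of which 698 were single windows. There were 38 runs of 3 or more windows with 152 windows in all, and the longest had 12. Of these runs, 3 lay antisense to *Kcnq1*, and the genes *Cbx1*, *Pde4d* and *Fam168a* held 2 each.

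**Figure D2:**
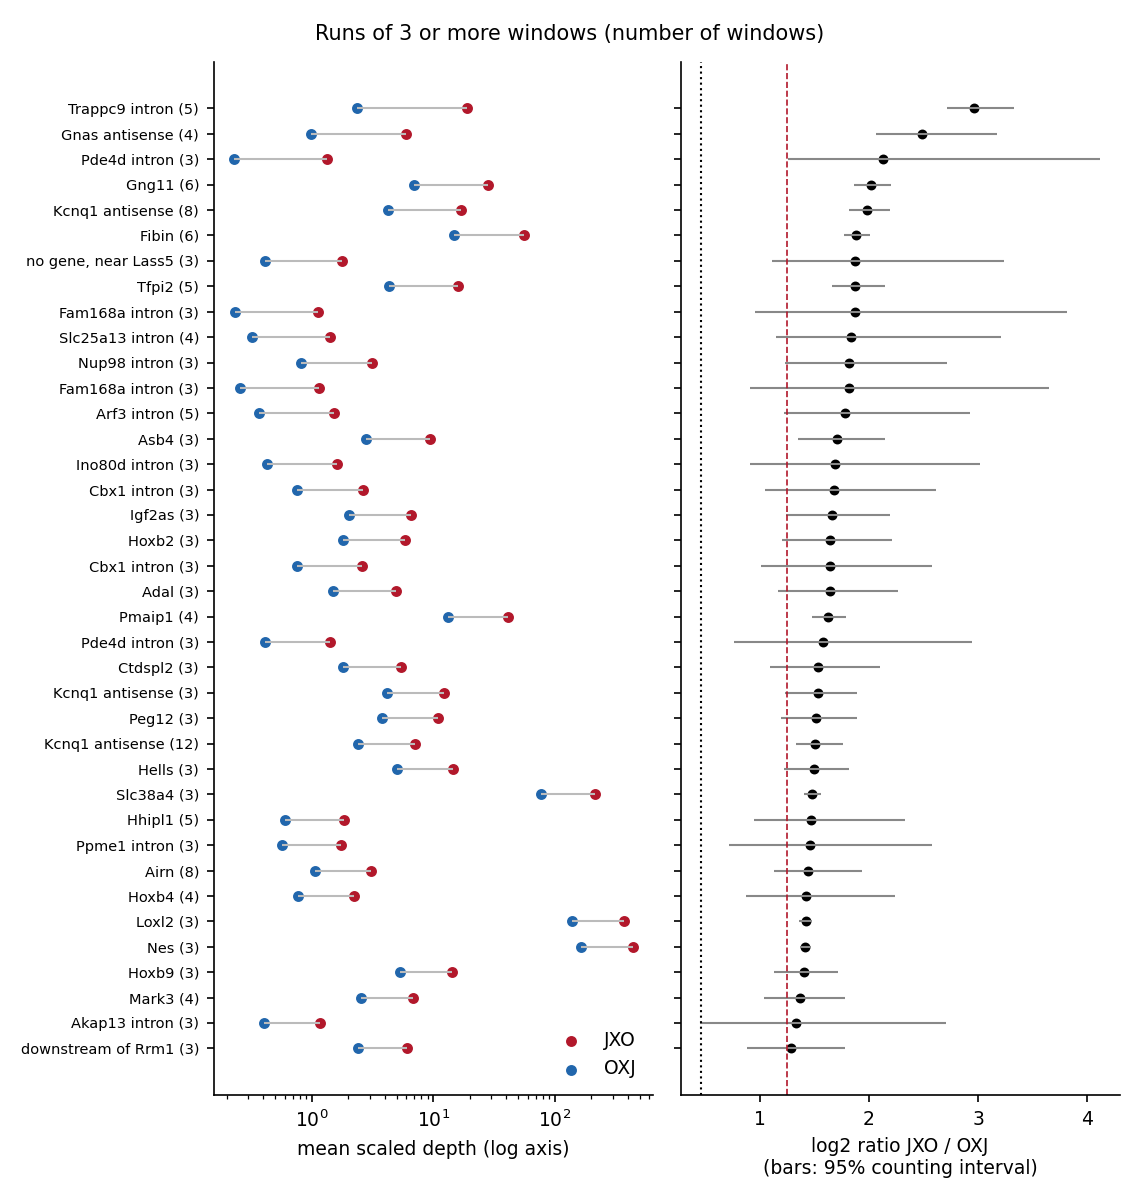
The 38 runs of 3 or more windows, with the number of windows in brackets. Left, mean scaled depth in JXO (red) and OXJ (blue) on a log axis. Right, log2 ratio with its 95% counting interval, the threshold (dashed) and the median of all windows (dotted). The run in an intron of *Trappc9* is highest at 2.97, and the runs of *Loxl2* and *Nes* have the narrowest intervals.

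The 2 runs of 3 or more windows with the largest ratios lay in imprinted domains. *Peg13* is a non-coding RNA transcribed from the paternal chromosome inside *Trappc9*, a gene of vesicle trafficking. Its 5 windows at chr15:72636001-72641000 had levels of 15.8, 17.7, 19.6, 30.1 and 12.6 in JXO and 1.34, 2.87, 1.87, 4.19 and 1.54 in OXJ. Each window was selected on its ratio, so this direction was fixed by the rule. The run had 1469 reads in JXO and 204 in OXJ, an 8.10-fold difference with a log2 ratio of 2.97 (counting interval 2.72 to 3.33), and 97.1% of its JXO signal was on (−). The exons of *Trappc9* itself, on the same strand, had a level of 1.91 in JXO and 2.21 in OXJ. The *Peg13* SNP printed by the study lies in this run, and there the study counted more reads in OXJ than in JXO, the opposite direction.

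*Kcnq1ot1* silences genes of its domain on the paternal chromosome. From its start, unbroken (−) strand signal in JXO ran for 92 kb, with nothing in either library in the first 1 kb upstream. The mean (−) level over this distance was 12.1 in JXO and 5.92 in OXJ, and the (+) level was 0.202 and 0.108. Of its 81 windows with a JXO mean of 1 or more, 30 (37.0%) were windows with more signal in JXO. The log2 ratio of the 81 windows ran from -0.03 to 3.22 with a median of 1.04, and 80 were above 0.

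The ratio was not even along this RNA. In 1 kb bins counted from the start, the median log2 ratio was 1.66 over the first 10 kb and 1.05 beyond. A run of 8 windows lay at the 5′ end at chr7:150474001-150482000, with 17.0 in JXO and 4.24 in OXJ (log2 1.98, counting interval 1.82 to 2.20). Its highest ratio, 3.22, came from the window of the stretch printed above, with 24.4 and 2.54. The longest run of all, 12 windows at chr7:150402001-150415000, lay at the far end, where levels fell off. It had 7.03 and 2.41 (log2 1.51, 1.33 to 1.76).

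**Figure D3:**
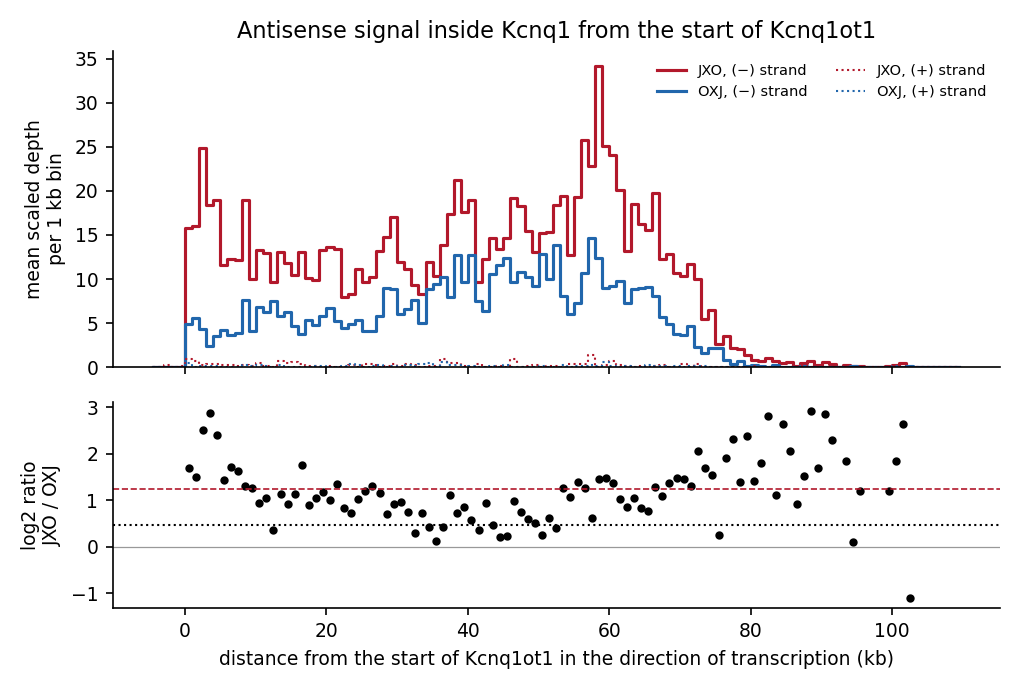
Scaled depth per 1 kb bin on (−) (solid) and (+) (dotted) by distance from the start of *Kcnq1ot1* (top), and log2 ratio of the (−) strand (bottom) with the threshold (dashed) and the median of all windows, 0.47 (dotted). JXO lies above OXJ over nearly the whole length, and the ratio is highest near the start and at the far end.

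At the *Gnas* locus, which codes for a stimulatory G protein subunit and several alternative and antisense transcripts, 4 windows on (−) at chr2:174147001-174152000 had 12.1, 1.98, 5.58 and 4.31 in JXO. In OXJ they had 1.5, 0.579, 1.15 and 0.721. Of the JXO signal of these windows, 98.9% was on (−). The run had a log2 ratio of 2.48 (2.07 to 3.17) and ends before RefSeq starts of *Gnas* at 174153250 and 174153269 on (+). Further upstream, *Nespas*, the antisense RNA of this locus, held 3 single windows, the highest with 6.91 and 2.47. The exons of *Gnas* had 184 and 128 (log2 0.53), and 1 window at the 3′ end, chr2:174172001-174173000, had 492 and 184.

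*Airn* starts inside *Igf2r* at chr17:12934177 and runs antisense through the 5′ part of that gene, past its boundary at 12962530. *Airn* held 14 windows with more signal in JXO among its 72. A run of 8 at chr17:13009001-13018000 had 3.09 in JXO and 1.07 in OXJ (log2 1.44, 1.13 to 1.93). *Igf2as*, antisense to the growth factor gene *Igf2*, held 3 of its 6 windows, with 2.42, 5.27 and 12 in JXO against 0.720, 1.75 and 3.57 in OXJ. A run of 3 windows covered part of *Peg12*, an intronless gene related to GSK-3 binding proteins, and the sequence downstream of it at chr7:69604001-69607000, with 11.0 and 3.77 (log2 1.52). In the same region 2 windows downstream of *Snrpn*, a splicing protein gene, at chr7:67119001-67121000 had 6.57 and 2.28.

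In the lists of imprinted genes, 50 of 339 windows (14.7%) of paternally expressed genes and 33 of 581 (5.68%) of maternally expressed genes had more signal in JXO, beside 8.88% of all windows. Of the maternal count, 6 windows belong to *Trappc9*, and the 5 of *Peg13* are among them. *Kcnq1ot1* and *Peg13* are not in the annotation, so the windows of *Kcnq1ot1* are in neither count and those of *Peg13* are counted under *Trappc9*. Without *Trappc9*, 27 of 571 windows (4.73%) of maternally expressed genes had more signal in JXO. The lists were not limited to genes that the study found imprinted in MEFs. It reports known imprinted genes that were transcribed from both alleles there, many of them imprinted only in some tissues. *Pon2*, a paraoxonase gene, was put in the paternal list but is known as maternally expressed in the placenta. With *Pon2* moved, a setting chosen after seeing the data, the counts were 48 of 318 (15.1%) and 35 of 602 (5.81%). The median log2 ratio of exon levels was 0.67 over 23 paternally and 0.26 over 25 maternally expressed genes with transcribed windows, beside 0.50 over 787 genes.

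Among paternally expressed genes, *Slc38a4*, a neutral amino acid transporter, held 8 of its 22 windows. Its 3 windows at the 3′ end had 182, 281 and 186 in JXO and 59.7, 105 and 66.6 in OXJ, and its exons 339 and 141 (log2 1.26, 1.22 to 1.31). *Inpp5f*, an inositol phosphatase gene, held 5 of 26 windows, *Plagl1* 3 of 29, *Zdbf2* 3 of 19 and *Nespas* 3 of 15. *Impact* held 2 of 22 and *Mest* 2 of 11. *Peg3* held 1 of 21, *Sgce* 1 of 15, *Dlk1* and *Snrpn* 1 of 8 each and *Peg12* 1 of 4. In *Dlk1*, a Notch ligand relative, the window lay in an intron with 1.06 and 0.347, while the exons of the gene had 5.17 and 11.6 (log2 -1.15), the opposite direction.

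Among maternally expressed genes, *Asb4* codes for an ankyrin repeat protein with a SOCS box. It held 4 of its 7 windows, and its exon level was 10.9 in JXO against 3.88 (log2 1.47, 1.2 to 1.8). *Ube3a*, a ubiquitin ligase, held 4 of 74 windows, all in introns. *Rian* held 2 of 58 windows, *Igf2r* 2 of 51, *Nap1l4* 2 of 36, *Osbpl5* 2 of 35, *Ano1* 2 of 23 and *Pon2* 2 of 21. *Atp10a* held 1 of 72, *Meg3* 1 of 30, *Ppp1r9a* 1 of 3, and *Gatm*, *Gpr1* and *Phlda2* 1 of 2 each. At the start of the non-coding RNA *Rian*, 1 window had 34.0 and 9.61 (log2 1.81), while all exons of *Rian* together had 233 and 179 (log2 0.38).

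Outside the imprinted lists, the runs of 3 or more windows with the largest ratios at a JXO mean of 5 or more were in 3 short coding genes. Being outside the lists does not show that a gene is not imprinted. *Gng11* codes for a G protein gamma subunit and lies at chr6:3953943-3958445 on (+). It held 5 of its 6 windows, with levels of 1.84, 53.9, 4.04, 4.51 and 104 in JXO and 0.365, 15.2, 0.904, 1.14 and 23.4 in OXJ. The remaining window had 2.55 and 1.44. The exons had 175 and 42.5, a log2 ratio of 2.04 (1.87 to 2.23).

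*Tfpi2*, a secreted inhibitor of serine proteases, lies nearby on the other strand at chr6:3912594-3918375. All 5 of its windows were among those with more signal in JXO, with 14.8, 41.0, 9.98, 7.74 and 6.72 against 3.78, 10.8, 2.42, 2.41 and 2.07. Its exons had 50.9 and 13.6 (log2 1.9, 1.66 to 2.16). *Col1a2*, which codes for a collagen chain, and *Peg10*, a retrotransposon-derived imprinted gene, lie in the same region, at chr6:4454814-4491543 and chr6:4697306-4710514. They held none, with exon log2 ratios of 0.59 and -0.25.

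*Fibin*, which codes for a secreted protein, is an intronless gene at chr2:110201082-110203150 on (−). Its 3 windows had 131, 162 and 31.1 in JXO and 32.1, 46.9 and 9.18 in OXJ, and its exon log2 ratio was 1.89 (1.77 to 2.02). The 3 windows downstream of it had 4.22, 1.76 and 2.04 against 0.521, 0.569 and 0.589, so the run went on past the annotated end. *Pmaip1*, a p53 target that promotes apoptosis, held 6 of 8 windows, and its exons had 69.3 and 22.7 (log2 1.61, 1.47 to 1.76).

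The highest levels among the windows came from exons of abundant transcripts. Single windows of *Hsp90aa1*, a heat shock chaperone, had 1574 in JXO and 611 in OXJ, and of *Pdia3*, a disulfide isomerase of the endoplasmic reticulum, 1466 and 587. Single windows of *Larp4*, an RNA-binding protein gene, and *Slc38a1*, an amino acid transporter gene of the cluster that holds *Slc38a4*, had 217 and 87.0, and 103 and 42.0. *Loxl2*, which crosslinks collagen and elastin, had 229, 714 and 162 in the 3 windows at its 3′ end, against 87.3, 266 and 59.9. *Nes* codes for nestin, an intermediate filament protein of progenitor cells. Its 3 windows had 265, 533 and 523 against 107, 177 and 210, while its other 7 windows had log2 ratios from 0.62 to 1.18. The exon log2 ratios of these genes ran from 1.0 for *Larp4* to 1.14 for *Nes*, so none of them reached the threshold as a whole. Reads were allowed to map to several loci, so the level of *Hsp90aa1*, which has processed copies elsewhere in the genome, is uncertain.

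Transcription factor genes that set position along the body axis, most of them of the Hox clusters, were a further list. Of its 28 genes with transcribed windows, 13 held windows with more signal in JXO, 25 of 156 windows (16.0%, beside 8.88% of all windows). The Hox genes alone, a setting chosen after seeing the data, held 24 of 147 (16.3%). *Hoxb9* had exon levels of 110 in JXO and 46.4 in OXJ (log2 1.24), *Hoxa9* 16.9 and 7.10 (1.24), *Hoxb2* 11.5 and 5.08 (1.16) and *Hoxa10* 15.3 and 7.08 (1.10). The median exon log2 ratio of the list was 0.73. *Hoxa3* held 4 of 39 windows, *Hoxb3* 3 of 12, *Hoxb4* 2 of 6 and *Hoxb6* 1 of 8. *Hoxb5* and *Hoxb7* held 1 of 4 each, *Hoxd8* 1 of 3, *Hoxc5* 1 of 2 and *Meis2*, which is not in a Hox cluster, 1 of 3. A window antisense to *Hoxb3os*, at chr11:96208001-96209000 on (+), had 20.6 and 6.24 (log2 1.71). It lies on the strand of *Hoxb3*, just past the annotated end of that gene at 96207999. Genes of a Hox cluster share their stretch of chromosome and are not independent.

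Of the amino acid transporters listed, *Slc38a1* held 9 of 36 windows, *Slc38a4* 8 of 22 and *Slc38a2* none of 14. Their exon log2 ratios were 1.01, 1.26 and 0.67.

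The fibroblast label was checked on *Col1a2*, a collagen gene, with exon levels of 583 in JXO and 388 in OXJ, *Dcn* with 22.9 and 25.9 and *Lum* with 18.9 and 15.5. These were the 3 of 27 listed fibroblast and matrix genes with transcribed windows in the deposited stretches, and none of their 50 windows had more signal in JXO. The lists of cell cycle, skeletal muscle, cartilage and bone, and germ cell genes had 11, 1, 33 and 2 transcribed windows, and none of these was past the thresholds. Of the neural and glial list only *Nes* was measured. No gene of the blood, endothelial or epithelial lists had a transcribed window in the deposited stretches, so the part of such cells was not tested.

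The genes with the most windows were mostly long. *Pde4d*, a cAMP phosphodiesterase, held 31 of 166 windows, 28 of them in introns, and *Akap13*, a scaffold for protein kinase A, 23 of 178. Then came *Airn* with 14, *Ctdspl2*, a phosphatase-like gene, and *Sbf2*, a myotubularin relative, with 11 each, and *Slc25a13*, a mitochondrial carrier, with 10. *Hells*, a chromatin helicase, *Loxl2*, *Mga*, a MAX partner, *Slc38a1* and *Ubr1*, a ubiquitin ligase, held 9 each. *Kdm5b*, a histone demethylase, and *Slc38a4* held 8, and *Atf2*, a transcription factor, and *Gdpd5*, a phosphodiesterase, 7. For most of these the exon level differed by less than in their windows. In *Pde4d* the exons had 13.7 and 9.44 (log2 0.53), and in *Akap13* 19.5 and 18.2 (0.10). *Hells* had 78.6 and 33.6 (1.22), just under the threshold, and *Slc38a4* was just above it.

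Of 894 genes with transcribed windows, 374 (41.8%) held at least 1 window with more signal in JXO, and 186 of these held just 1. They had a median of 12 transcribed windows, against 4 for the other genes. Among 336 with an exon level of 1 or more in JXO, the exon log2 ratio reached the threshold in 15 and was above 0 in 314, with a median of 0.62. Among all 787 genes at this level 23 reached the threshold (2.92%), so 8 of them held no such window. The 451 other genes had a median of 0.40. The genes were grouped by windows selected on the ratio, so a gap between these medians follows at least in part from the rule. The largest exon ratio with a narrow counting interval was that of *Gng11*. *2010300F17Rik*, annotated as a long non-coding RNA, had 3.19 and 0.616 (log2 2.20, 1.55 to 3.28), and *Cdan1*, linked to red cell formation, held 4 windows, one of them with 6.19 and 1.37, within exons of 11.1 and 6.79 (0.70).

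The annotation of the windows was not part of the rule. Windows with more signal in JXO lay in introns in 54.6% of cases, over exons in 31.7%, antisense to a gene in 5.19% and in no gene in 8.51%. Of the windows that met the level alone, 32.6% lay in introns and 60.7% over exons. At a JXO mean of 5 or more only 12.6% lay in introns, so the windows were mostly intronic only at low levels. The 192 windows with more signal in OXJ were also mostly intronic, at 68.8%. Introns had lower levels, and low levels passed the thresholds more often. At a JXO level of 2 to 5 the thresholds were passed by 12.7% of 1279 intron windows and 5.74% of 1602 exon windows. From 5 to 20 they were passed by 6.07% of 379 and 3.17% of 2332.

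Antisense windows had the largest share of the 4 classes, 53 of 203 (26.1%), and it hardly fell with level. From 5 to 20 it was 27.3% of 88 windows and from 20 up 25% of 20. The *Kcnq1* antisense windows supplied 30 of the 53 and the *Gnas* locus 4, so this class is mainly 2 transcripts. Only 1 run of 3 or more windows overlapped no gene at all, at chr15:99562001-99566000 near *Lass5*, a ceramide synthase gene, with 1.78 in JXO and 0.412 in OXJ and signal on both strands.

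Apart from these, the antisense windows were single ones. The deepest was the window antisense to *Hoxb3os* and on the strand of *Hoxb3* given above, with 316 reads in JXO and 108 in OXJ. A window downstream of *Mest*, on the strand of *Mest* and antisense to the coatomer gene *Copg2*, at chr6:30701001-30702000 had 2.64 in JXO and 0.699 in OXJ over both strands (log2 1.78, 0.55 to 3.51). On the antisense strand lay 100% of this signal in JXO and 68.2% in OXJ.

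Apart from the *Peg13* windows in *Trappc9*, runs of 3 or more windows wholly in introns had low levels in both libraries. In *Arf3*, a GTPase of Golgi traffic, 5 intron windows had a mean of 1.52 in JXO and 0.372 in OXJ (log2 1.78, 1.22 to 2.93), while its exons had 158 and 115 (log2 0.46). In *Nup98*, a nuclear pore gene, 3 intron windows had 3.15 and 0.820 (1.82), while the exons had 58.6 and 53.8 (0.12). In *Slc25a13* 4 intron windows had 1.42 and 0.326 (1.83), and in *Ino80d*, of the INO80 remodelling complex, 3 had 1.62 and 0.432 (1.69). In *Cbx1*, which codes for a heterochromatin protein, introns held 2 runs, with 2.65 and 0.760 and with 2.58 and 0.760, and here the exons had 119 and 59.1 (log2 1.01). The windows of these runs were selected on the ratio and the exons were not, so the ratios of the runs had to be large. Over all introns of these genes the log2 ratio was 0.61 in *Arf3* and *Nup98*, 0.31 in *Slc25a13*, 0.36 in *Ino80d* and 0.95 in *Cbx1*.

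**Figure D4:**
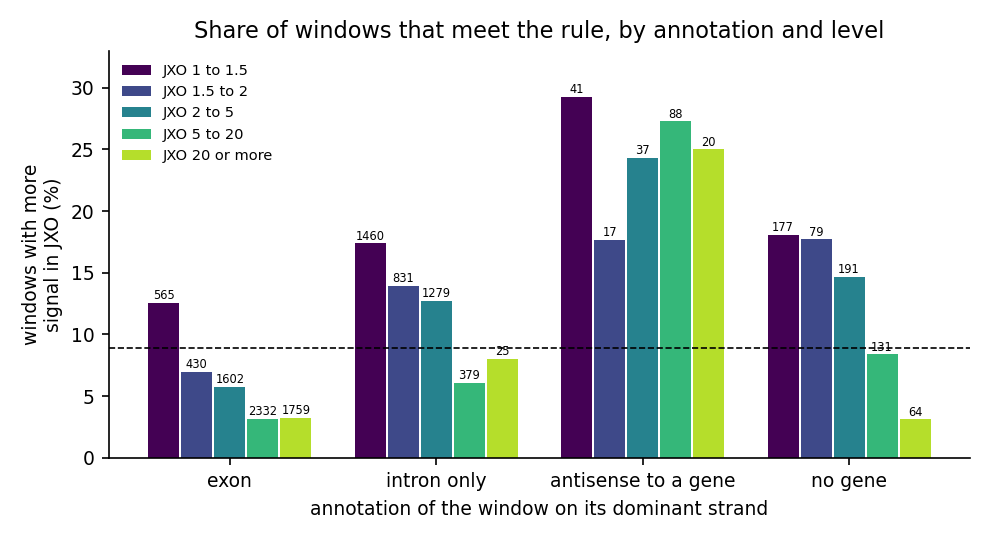
Percent of windows that are windows with more signal in JXO, by annotation on the dominant strand and by JXO level, with the number of windows above each bar and the share over all windows, 8.88%, as a dashed line. Intron windows exceed exon windows at every level shown, and antisense windows stay near 25% at high levels.

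The strand was not used by the rule either. Over the windows with more signal in JXO, 97.8% of the JXO and 97.2% of the OXJ signal lay on the dominant strand of the window. In the other windows these shares were much the same, 97.6% and 97.4%. The same strand was dominant in both libraries in 998 of the 1013 windows with OXJ signal (98.5%), and in 10446 of the 10485 others (99.6%). All JXO signal was on 1 strand in 57.2% of the windows, against 34.8% of the others. At a level of 1 to 2 these shares were 75.9% and 66.3%, and at 5 to 20 they were 24.2% and 14.2%. The direction of the tracks was checked with coding genes outside the imprinted lists, of which 725 of 734 had more exon signal on their own strand in JXO and 723 in OXJ.

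The spread of signal within the windows varied. In JXO a median of 77.8% of the bases of a window was covered on the dominant strand, close to 80.1% in the other windows. The highest base was 3.2 times the window mean at the median, against 3.75 in the others, and it reached 89.6 times. When the highest 100 bp bin of each window was left out, 576 of the 1022 windows still met the rule. In OXJ the median coverage was 50.7%, which the rule for lower signal in OXJ bears on.

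The windows were poorer in G and C. Their median GC content was 42.8%, against 45.4% in the other windows and 45.3% in windows with more signal in OXJ. In 5 equal groups of windows from the lowest to the highest GC content, 13.0%, 10.8%, 9.17%, 7.38% and 4.10% passed the thresholds. The median log2 ratio of all windows fell along with it, from 0.69 to 0.31. Within exon windows the share went from 8.25% to 3.01% and within intron windows from 15.8% to 10.2%. GC content thus moved with the ratio over all deposited windows with a JXO mean of 1 or more, and its part in the result was not tested. The hexamer AATAAA, searched on the RNA strand only, was in 51.2% of the windows and in 39.4% of the others, and it too is poor in GC.

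**Figure D5:**
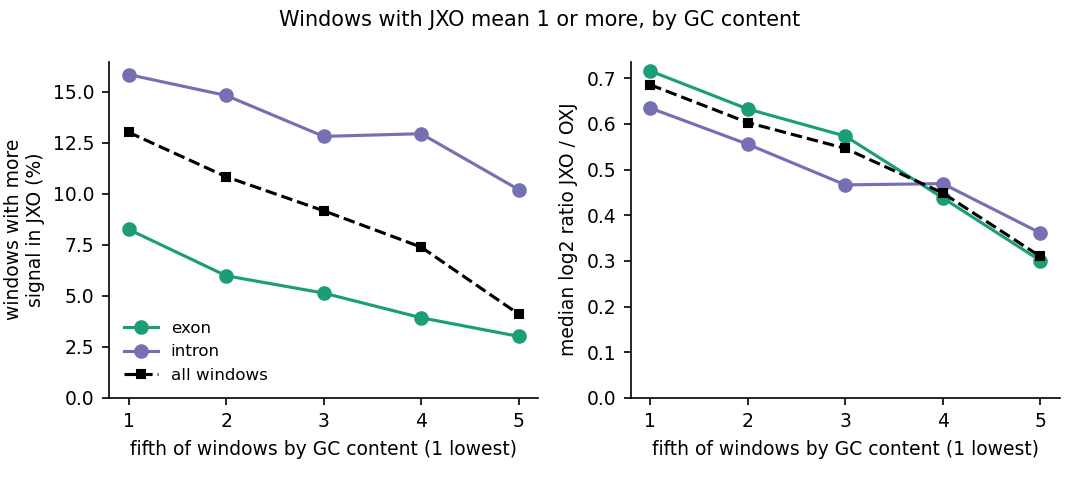
Percent of windows with more signal in JXO (left) and median log2 ratio (right) in 5 equal groups of windows ordered by GC content, for exon windows, intron windows and all windows. Both fall from the lowest to the highest group in exons and over all windows, from 13.0% to 4.10% and from 0.69 to 0.31 over all.

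In coding genes of 10 kb or more the windows were spread evenly over the gene. With each gene cut into 4 equal parts from 5′ to 3′, the shares were 26.3%, 20.5%, 26.5% and 26.7% of 748 windows. The other windows gathered at the 3′ end, with 22.4%, 17.6%, 24.9% and 35.1% of 8461. By chromosome the share of windows past the thresholds ran from 4.27% on chromosome 10 to 15.6% on chromosome 19, and chromosome 7, which holds the most windows, had 253 of 2741 (9.23%).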

How the data were processed

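RNA from 1 JXO and 1 OXJ MEF line was sequenced in pairs with strand marked by dUTP. The submitters' processing notes name CASAVA 1.9 and TopHat 1.2.0, with mm9 as genome, and reads could map to up to 10 loci. The authors deposited log2 values of 1 plus the read depth per base and direction, scaled to 50000000 aligned reads, in 4 tracks that hold part of each library, 5720359 reads of JXO and 5700081 of OXJ on chromosomes 1 to 19. Direction "forward" held (−) strand RNA.

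Values were turned back to depth and averaged over windows. Levels of genes are means over exons of GENCODE M1 on the strand of the gene. Counting intervals are Clopper-Pearson intervals on pairs of 200 read bases, without the pseudocount of 0.1. Software was Python 3.11.15 with scipy 1.17.1 for intervals, pandas 2.3.3 and numpy 2.4.6 for tables and matplotlib 3.10.9 for plots, and the calculation was tested on simulated data. No test between crosses was made, since there was 1 library per cross.

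The windows, the 13 gene lists and the alternatives were chosen with earlier results of these data known. Named were the 15 genes with most windows, genes of the 10 runs with the highest JXO mean, genes of the 10 runs with the largest ratio among runs with a JXO mean of 5 or more, list genes that hold a window, and runs of 3 or more windows in no gene. Any other gene was picked once its values were known. Alternatives concerned the pseudocount, thresholds, windows, scaling, averaging and strand. Chromosomes X and Y were outside the rule.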

Additional observations from a re-analysis of the deposited data

Results flagged for a closer look

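The rule left out the sex chromosomes. Applied to chromosome X, it was met by 24 of 214 windows with a JXO mean of 1 or more (11.2%), and this was flagged because it is signal in data outside the windows described. The median log2 ratio of the 214 windows was 0.63, and 3 windows were higher in OXJ by the same thresholds. The 24 windows that met the rule include a window in *Rlim*, a ubiquitin ligase gene, with 83.1 in JXO and 34.6 in OXJ (log2 1.26). On chromosome Y none of 2 windows met the rule.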

How the results depend on the processing

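The number of windows, 1022, moved with most settings. A pseudocount of 1 left 156, a JXO mean of 2 or more 490, a mean of 5 or more 198, a log2 ratio of 1.5 or more 565, windows of 2 kb 243, scaling to a median ratio of 0 372, and the mean of log2 values 642, of which 545 were among the 1022. Without a filter on the JXO mean there were 3576, and with a log2 ratio of 1 or more 1884. The count stayed within 1.5 times with a pseudocount of 0.01 (1187), windows shifted by 500 bases (990), equal totals (690), the dominant strand only (1016, 924 shared) and without the highest 100 bp bin (699, 576 shared). The share in introns, 54.6%, was 55.6% over runs, and in settings chosen after seeing the data 12.6% at a JXO mean of 5 or more, 59.3% with equal totals and 63.4% with the median at 0. The strand share was 100% as a median and 97.8% as a sum. The 15 genes with an exon ratio past the threshold were 12 with equal totals, 11 with the mean of log2 values and 10 over the whole gene span. Of 63 genes named and measured, 59 were above 0, and 56, 60 and 59 were in these settings. No paired analysis was possible because each cross has 1 library, and for the same reason no library could be left out. Depth limits the windows at low levels.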
